A study of Sus scrofa with 15 samples.

Results

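Embryos made by somatic cell nuclear transfer (SCNT) from pig fetal fibroblasts were compared at the 4-cell stage with and without a combined chromatin treatment. The comparison rested on 6 of the 15 RNA-seq libraries analysed here, chosen by their group alone: 3 of untreated embryos (SCNT4c) and 3 of embryos that had received KDM4A mRNA together with GSK126 (SCNT4c-KG). In both groups a nucleus of a cultured fetal fibroblast (PFF) had been placed in an enucleated oocyte, and each library came from a pool of 30 embryos. In the SCNT4c-KG group, the embryos were injected 5 h after activation with pig KDM4A mRNA (1000 ng/µl) and spent their first 48 h in 0.1 µM GSK126. The control embryos were described as not treated, so injection itself and the solvent of GSK126 cannot be told apart from KDM4A and GSK126. The reads of injected and endogenous *KDM4A* mRNA cannot be told apart either. The other 9 libraries, 3 each of 4-cell embryos from donor cells with a TDG vector, in which doxycycline switched TDG on for a time (SCNT4c-TDG), untreated 8-cell SCNT embryos (SCNT8c) and PFF, are used only where their level helps to place a value.

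After fertilization or nuclear transfer, an embryo first lives on RNA and protein stored in the oocyte, and it takes over when its own genome starts to be transcribed while the stored RNA is degraded. In the pig this genome activation is centred on the 4-cell stage. Trimethylation of lysine 9 of histone H3 (H3K9me3) marks compact, silent chromatin, and KDM4A removes it. Trimethylation of lysine 27 (H3K27me3) is laid down by the Polycomb repressive complex PRC2, whose catalytic subunit EZH2 is blocked by GSK126. Both marks are carried into the egg with the donor nucleus.

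A conflict in the labels bears on every direction given here. The descriptions of the SCNT4c-KG samples bear the column names that the expression table uses for untreated embryos, and those of the SCNT4c samples bear the name SCNT_4c_tr, which no column of the table has, with their numbers in another order. Titles and the plain column names were followed here, and the SCNT4c libraries are called a, b and c. *KDM4A* itself, the injected gene, was at 313, 136 and 134 in SCNT4c and at 1437, 1476 and 1429 in the libraries taken as SCNT4c-KG, in the order a, b, c and replicates 1, 2, 3 that is kept throughout. All 3 treated libraries lay above the 3 untreated ones, with a log2 fold change of 3.01 ± 0.48 (adjusted p = 0.00022). Values are read counts scaled by 1 factor per library, fold changes are on the scale of log2(value + 1) and understate the change of low genes, and ± gives the SE of the limma fit.

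The treated libraries were the shallowest, with 12354649 to 15390472 recovered reads against 20460653 to 22530486 in SCNT4c. The test took in 18942 of 43294 features, those averaging 10 or more over the 12 embryo libraries. A feature that is high in a single group can pass this filter through that group alone, so counts over the tested members of a list are descriptions. The test called 3335 features higher (17.6% of those tested) and 3719 lower (19.6%) in SCNT4c-KG, in all 37.2%. Falls did not outnumber rises in every setting, with 3114 higher and 2717 lower in edgeR on the recovered reads and 3018 and 2624, 2842 and 2627, and 3037 and 2873 without SCNT4c library a, b and c. The median log2 fold change of all tested features was -0.30. Every SCNT4c-KG library lay above every SCNT4c library for 24.3% of the features and below for 29.6%. The 10 fibroblast markers COL1A1, COL1A2, COL3A1, FN1, VIM, THY1, DCN, LUM, POSTN and S100A4 summed to 4270 to 5469 in SCNT4c, to 2646 to 3884 in SCNT4c-KG and to more than 3863840.0 in PFF, and those of cumulus cells to 90.0 to 279 and 106 to 237. Of the 9 fibroblast markers tested, 3 were higher and 4 lower. *COL1A2* alone fell by more than their whole sum, from 2633, 2218 and 2755 in SCNT4c to 469, 367 and 581 in SCNT4c-KG. A longer list of 57 fibroblast markers summed the other way, to 15344 to 17744 in SCNT4c and 23301 to 31185 in SCNT4c-KG, and the part of fibroblast RNA in other results was not tested. In pools of whole embryos, fewer cells of a kind and less RNA per cell cannot be told apart.

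The shares of higher and lower features differed between kinds of RNA. Among 9729 tested protein-coding genes with a gene symbol, 21.9% were higher and 19.03% lower. Among 1912 tested long non-coding RNAs 8.32% were higher and 23.7% lower, with a median log2 fold change of -0.96, and their share of all signal was 5.83% to 6.25% in the SCNT4c libraries and 2.72% to 3.14% in the SCNT4c-KG libraries. The table also holds 15070 transcripts that the authors had assembled from the reads, of which 11213 share the locus entry of a known gene, so their reads may not be separate from that gene's. Of the 4991 tested among those, 12.1% were higher and 20.2% lower, and of the 1152 tested at an entry of their own 16.5% and 17.4%. For the 6143 tested together these shares were 12.9% and 19.7%, and their share of all signal went from between 10.9% and 12.3% to between 6.56% and 7.51%. The shares of signal did not overlap between the groups for either kind. Among the 58 gene lists with at least 10 tested members, 8 had shares of higher and of lower members that both lay within 5 percentage points of those of all features. These were glycolysis, DNA replication, trophectoderm and hypoblast factors, compaction and junctions, signalling ligands and receptors, ZNF genes, solute carriers, and cytokines with interferon response genes, and their counts are no result about those lists.

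**Figure D1:**
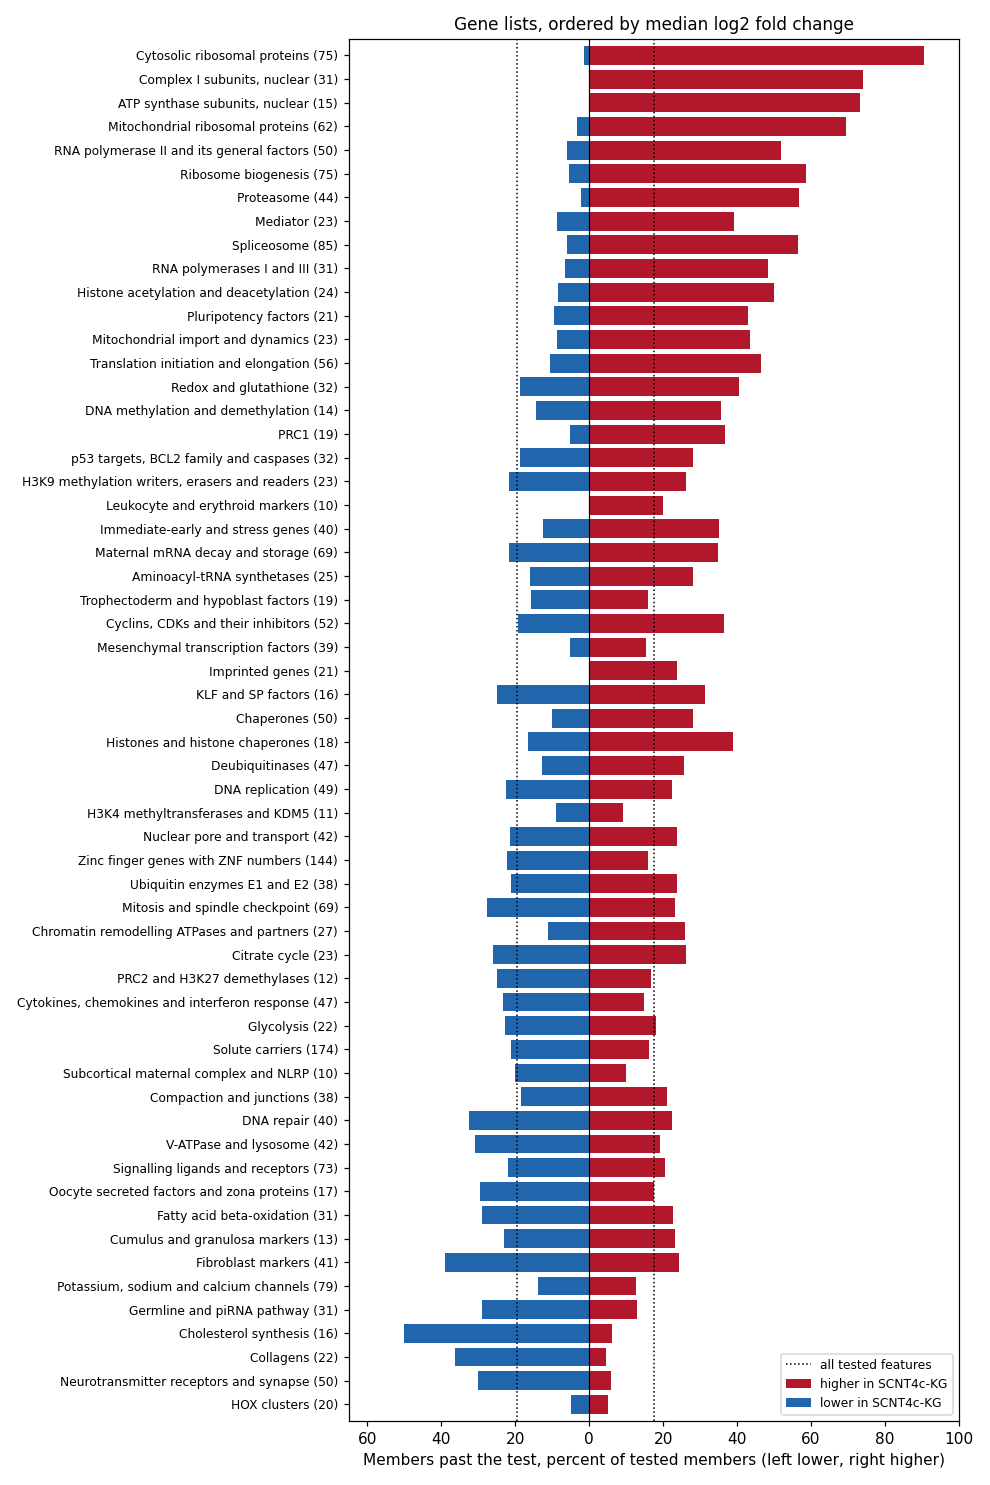
Percent of the tested members of each gene list (number tested in parentheses) that were higher (right, red) or lower (left, blue) in SCNT4c-KG than in SCNT4c, for lists with at least 10 tested members, ordered by the median log2 fold change of the members. Dotted lines mark the shares among all 18942 tested features, 17.6% and 19.6%; cytosolic ribosomal proteins, with 68 of 75 higher, stand at the top.

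Genes of the modifications that the treatment addresses were called in both directions. Of 23 tested writers, erasers and readers of H3K9 methylation, 6 were higher and 5 lower, that is 26.1% and 21.7%, beside 17.6% and 19.6% of all tested features. *KDM3A*, a demethylase of mono- and dimethylated H3K9, rose with a log2 fold change of 3.41 ± 0.86, while its paralog *KDM3B* fell (-2.41). The H3K9 methyltransferases *SUV39H2* and *SETDB2* fell as well. *SUV39H2* was at 6972, 7561 and 6923 in SCNT4c and at 988, 911 and 1080.1 in SCNT4c-KG. Every treated library was far below every untreated one, and the log2 fold change was -2.85 ± 0.41 (adjusted p = 9.88e-05). *CBX5*, which encodes the H3K9me3 reader HP1 alpha, rose (1.42).

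Of 12 tested PRC2 and H3K27 demethylase genes, 2 were higher and 3 lower. *EZH2*, the target of GSK126, was at 339.9, 344 and 314 and rose to 915, 1027 and 1245. The untreated libraries were tightly grouped below all treated ones (1.66 ± 0.38, adjusted p = 0.00319). The core partners *EED* and *SUZ12* did not pass, with log2 fold changes of 1.04 (adjusted p = 0.06) and -1.15 (adjusted p = 0.0722). The accessory subunits *PHF19* and *MTF2*, which bring PRC2 to chromatin, fell by 2.01 and 1.78 on the log2 scale. In PRC1, the complex that ubiquitylates histone H2A, 7 of 19 tested members were higher and 1 was lower. The member that fell was *RNF2*, its E3 ligase, which stood at 11900.4, 7521 and 6027 in SCNT4c and at 1237, 1137 and 1207 in SCNT4c-KG. The groups were far apart, at a log2 fold change of -2.77 ± 0.33 (adjusted p = 1.69e-05). *PCGF1* rose (2.81).

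Among 14 tested genes of DNA methylation, 5 were higher and 2 lower. *DNMT1*, the maintenance methyltransferase, was at 11.8, 4.37 and 1.66 in SCNT4c and at 310.4, 367 and 192 in SCNT4c-KG. All treated libraries were well above all untreated ones (5.63 ± 0.75, adjusted p = 4.95e-05), and the mean was 5.92 in SCNT8c and 22.1 in SCNT4c-TDG. The lowest untreated value lay under the 2.49 that 3 reads give in SCNT4c. The locus entry of *DNMT1* holds 3 features, so its reads may not be separate from theirs. The de novo methyltransferase *DNMT3B* went the other way, from 813, 569 and 617 to 84.9, 121 and 62.7. Its groups did not overlap either (-2.92 ± 0.69, adjusted p = 0.00408). *UHRF2*, a reader of hydroxymethylated DNA and an E3 ligase, fell from 79138, 90597 and 80714 to 6663, 7357 and 7982. Its untreated libraries were all higher by a wide margin (-3.51 ± 0.58, adjusted p = 0.000316), and it carried most of the list's summed value in SCNT4c, and that sum was lower in every treated library (93758 to 107728 in SCNT4c and 39205 to 45598 in SCNT4c-KG). *MBD4*, a glycosylase acting on deaminated methylcytosine, rose (5.14), as did *DPPA3*, a maternal protector of DNA methylation (2.28). *TET1*, *TET2* and *TET3*, which oxidise methylcytosine, are listed at 0 in every library, PFF included. Their locus entries hold 4, 2 and 9 features, so a 0 here does not show that the transcript was absent.

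Histone acetyltransferases and deacetylases leaned upward, with 12 of 24 tested higher and 2 lower, *KAT8* among those that rose (2.78). Among chromatin remodellers, 7 of 27 were higher and 3 lower. *SMARCB1*, a core subunit of the BAF remodelling complex, rose by 4.41 and *BRD7*, of a variant of that complex, fell by 1.96 on the log2 scale. Of 18 histone and histone chaperone genes with symbols, 7 were higher and 3 lower. *H3F3A*, which encodes the replication-independent histone H3.3, and *CENPA*, the centromeric histone, rose by 3.77 and 4.34, and the H3.3 and H3 chaperones *ASF1A* and *CHAF1B* fell by 1.29 and 1.28. The summed value of the 25 in the table overlapped between groups, at 253529 to 278951 in SCNT4c and 248237 to 351754 in SCNT4c-KG. The annotation names a further 69 histone genes only by a number, and their summed value was 20823 to 22267 in SCNT4c and 148272 to 238125 in SCNT4c-KG. Most of that sum belonged to 1 gene, LOC100521680, annotated as histone H3.3, which was at 220116, 194371 and 134245 in SCNT4c-KG. H3.3 has near-identical copies in the genome, so the division of reads between these genes is uncertain.

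Genes of the transcription machinery were more often called higher than lower. Of 50 tested genes of RNA polymerase II and its general factors, 26 were higher and 3 lower, with a median log2 fold change of 1.74 against -0.30 for all features. By quartile of exon length, 17 of 24 were higher in the shortest and 1 of 5 in the longest. *POLR2K*, a small subunit shared by all RNA polymerases, was at 61.5, 39.3 and 32.4 in SCNT4c and at 13179, 13986 and 12299 in SCNT4c-KG. The treated libraries formed a tight group far above the untreated ones (8.23 ± 0.35, adjusted p = 1.35e-09). *POLR2L* and *POLR2F*, further small shared subunits, rose by 8.03 and 5.81 on the log2 scale. In the other direction, *TAF12* of the TFIID complex fell by 1.91. Of 23 tested subunits of Mediator, which bridges activators and polymerase II, 9 were higher and 2 lower, with *MED10* at 5.19 and *MED17*, its core head subunit, at -2.81. RNA polymerases I and III had 15 of 31 tested genes higher and 2 lower. *POLR1C*, shared by both, rose by 5.92, and *POLR3K*, a subunit of polymerase III alone, fell by 1.60.

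Of the 448 transfer RNA genes in the table, which RNA polymerase III transcribes, only 7 passed the filter. Of these 7, 6 were higher and 0 lower, and 5 of them encoded the histidine tRNA with the anticodon GUG. The table holds 7 such genes, and all 7 have this same sequence of 72 bases in Sscrofa11.1, shown here because a read that lies within it cannot be assigned to one copy. The authors counted uniquely mapped reads, so the reads behind these values were placed by bases outside the 72 and need not stem from the tRNA itself. Capitals mark the B box, the internal promoter element that the transcription factor TFIIIC binds.
TRNAH-GUG: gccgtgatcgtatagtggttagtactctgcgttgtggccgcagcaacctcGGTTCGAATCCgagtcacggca
The copy at chr1:126541264-126541335 on the minus strand was at 0, 0 and 0.830 in SCNT4c and at 361, 443 and 369 in SCNT4c-KG. Over the 7 copies the sum was at most 1.66 in any SCNT4c library and 842 to 1003 in the SCNT4c-KG libraries, and the groups stood far apart. The 5 tested copies had log2 fold changes of 6.60 to 8.32. The sum was 6.69 to 12.2 in SCNT4c-TDG, at most 2.11 in SCNT8c and 0 in all PFF libraries.

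Spliceosome genes leaned upward too. Of 85 tested spliceosome genes, 48 were higher and 5 lower (median log2 fold change 1.42), and the 95 genes of the list in the table took 0.971% to 1.09% of all signal in SCNT4c and 3.13% to 3.47% in SCNT4c-KG. *SNRPF*, a protein of the Sm ring around the spliceosomal small nuclear RNAs, was at 67.8, 100.5 and 32.4 and at 9533, 10676 and 7823. All of its treated libraries lay far above the untreated ones (7.23 ± 0.40, adjusted p = 1.22e-08). *TXNL4A* of the U5 particle and the ring protein *LSM7* rose by 5.93 and 5.90. *SF3B3*, of the SF3b complex at the branch point, and *CWC22*, which helps to load the exon junction complex, fell by 2.04 and 2.04 on the log2 scale.

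Genes for the cytosolic ribosome had the largest share of higher members among the lists with at least 10 tested. Of the 85 ribosomal protein genes listed, 75 were tested, 68 were higher and 1 was lower, with a median log2 fold change of 4.81. They took 0.658% to 1.05% of all signal in the SCNT4c libraries and 7.31% to 8.51% in the SCNT4c-KG libraries, and the shares did not overlap. The mean of their summed value was 9.10-fold that of SCNT4c in SCNT4c-KG, 2.32-fold in SCNT4c-TDG and 1.92-fold in SCNT8c. *RPL38*, a small protein of the large subunit, was at 30.0, 69.0 and 67.3 in SCNT4c and at 15798, 18469 and 13516 in SCNT4c-KG. The treated libraries were higher by a wide margin (8.22 ± 0.52, adjusted p = 3.52e-08). *RPL39* and *RPS29* rose by 7.84 and 7.81. The member that fell, *RPL10L*, is a copy of *RPL10* expressed mainly in the male germline, and it went from 148, 165 and 109.6 to 18.0, 26.6 and 45.6. Its groups did not overlap (-2.27 ± 0.64, adjusted p = 0.0119).

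In ribosome biogenesis, 44 of 75 tested genes were higher and 4 lower (median 1.68). *BYSL*, required for the small subunit, rose from 1.58, 0.874 and 0.830 to 238, 274 and 235. It was near 0 in each untreated library (6.92 ± 0.89, adjusted p = 3.50e-05). *PES1*, for the large subunit, rose by 6.61, and *HEATR1* and *UTP11*, of the early small-subunit processome, fell by 1.54 and 1.25. Of 56 tested initiation and elongation factors 26 were higher and 6 lower. *EIF3F* (4.39) and *EIF3D* (3.54), which encode subunits of initiation factor 3, rose, whereas *EIF4ENIF1*, which carries the cap-binding protein into repressed particles, and *EIF2AK2*, the double-stranded RNA kinase that stops initiation, fell (-2.48 and -1.89). Aminoacyl-tRNA synthetases were mixed, with 7 of 25 higher and 4 lower. *RARS*, for arginine, rose by 6.94, and *EPRS*, for glutamate and proline, fell by 1.17.

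**Figure D2:**
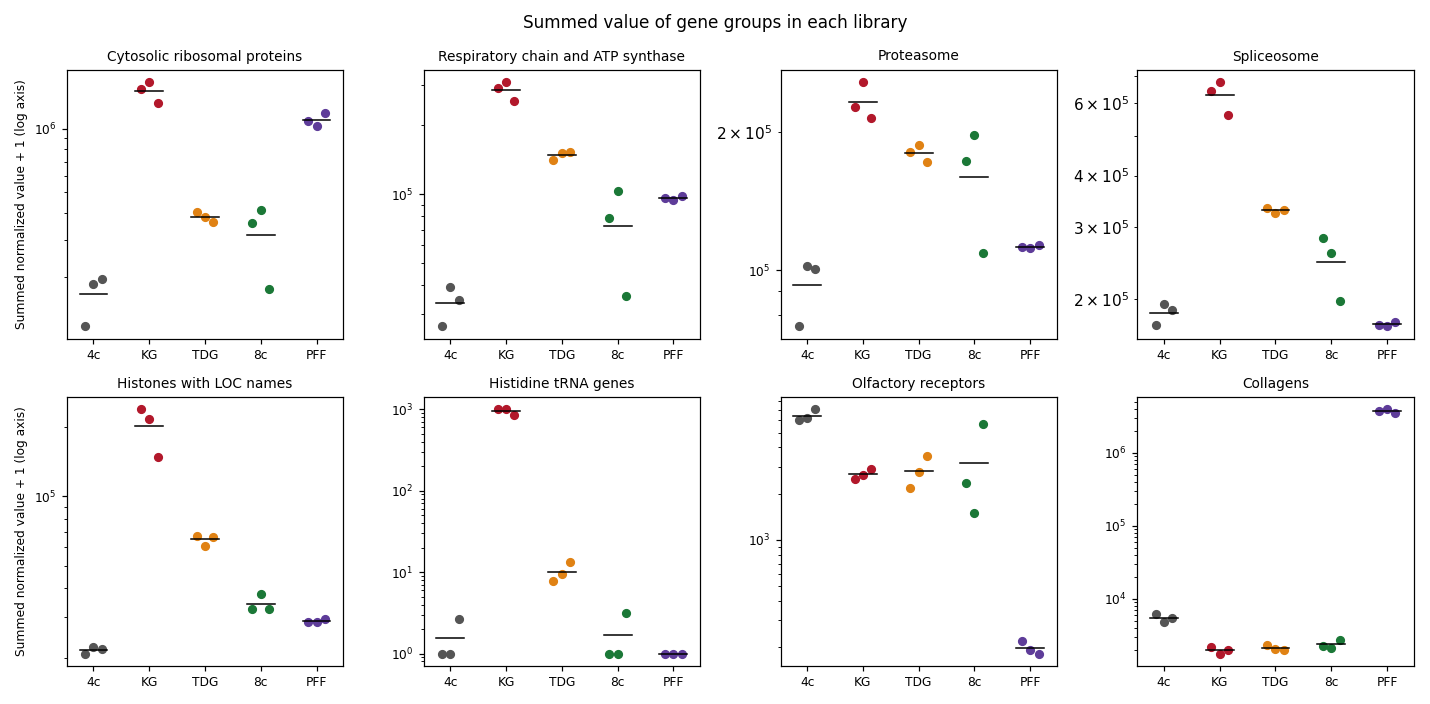
Summed normalized value (plus 1, log axis with its own range in each panel) of 8 gene groups in each library; points are libraries, bars are means, and 4c, KG, TDG and 8c stand for SCNT4c, SCNT4c-KG, SCNT4c-TDG and SCNT8c. The 3 SCNT4c-KG libraries lie above the 3 SCNT4c libraries for ribosomal proteins, the respiratory chain, the proteasome, the spliceosome, histones without a symbol (LOC names) and histidine tRNA genes, and below them for olfactory receptors and collagens.

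Among genes of protein turnover, those of the proteasome were mostly called higher. Of 44 tested proteasome genes 25 were higher and 1 was lower (median 1.68). *PSMA6*, of the catalytic core, was at 9.46, 20.1 and 4.15 in SCNT4c and at 2164, 2117 and 2127 in SCNT4c-KG. The treated libraries were almost equal and all far higher (7.68 ± 0.69, adjusted p = 1.07e-06). *PSMD7* of the regulatory lid and the ATPase *PSMC3* rose by 7.15 and 6.63. *PSMD5*, which the mature proteasome does not contain because it is an assembly chaperone, fell by 3.01. Ubiquitin-activating and conjugating enzymes had 9 of 38 members higher and 8 lower, deubiquitinases 12 of 47 higher and 6 lower, and the V-ATPase and lysosome list 8 of 42 higher and 13 lower. *UBE2S*, which extends ubiquitin chains for the anaphase-promoting complex, rose by 3.06. *USP9X*, an X-linked deubiquitinase, fell by 2.74. Of 50 tested chaperones 14 were higher and 5 lower, with the co-chaperone *DNAJB1* at 3.67 and *HSPA4L* at -2.79.

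Most tested nuclear genes of complexes I and IV and of ATP synthase were higher. For complex I 23 of 31 tested subunits were higher and 0 lower (median 3.33), for complexes II and III with cytochrome c 2 of only 3 (*CYCS* and *UQCRB*), for complex IV 6 of 6 (median 4.61), and for ATP synthase 11 of 15 (median 3.07), with 0 lower in each. *NDUFA11*, an accessory subunit of complex I, was at 10.3, 23.6 and 13.3 in SCNT4c and at 5792, 7533 and 3766 in SCNT4c-KG. *COX7A2*, of complex IV, was at 3.94, 2.62 and 0.830 and at 766, 1212 and 782. For both genes every treated library was above every untreated one by a wide margin, with log2 fold changes of 8.44 ± 0.44 (adjusted p = 7.21e-09) and 8.14 ± 0.66 (adjusted p = 3.43e-07). *COX5B* rose by 6.88, *NDUFB4* by 6.65 and *CYCS*, the electron carrier cytochrome c, by 3.93. The summed value of the chain was 8.49-fold that of SCNT4c in SCNT4c-KG and 4.42-fold in SCNT4c-TDG. Of 13 protein genes of the mitochondrial genome, 9 are listed at 0 in every SCNT4c and SCNT4c-KG library. Of the 4 tested, 3 were higher, including *CYTB* (1.79) and *ND6* (2.81). The locus entry of *ND6* holds 13 features, so its reads may not be separate from theirs. *CYTB* was at 64275, 72278 and 43287 and at 245364, 177012 and 191017. All treated libraries lay above the untreated ones, and the mean in SCNT4c-TDG was 749504.

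Mitochondrial ribosomal proteins, encoded in the nucleus, had 43 of 62 tested members higher and 2 lower (median 1.83), led by *MRPL20* (6.68) and *MRPS21* (6.56). Of 23 genes of import and dynamics 10 were higher and 2 lower. *TOMM5*, a small subunit of the outer membrane translocase, rose by 5.10, and *TOMM70*, a receptor of the same translocase, and *POLG2*, of the mitochondrial DNA polymerase, fell by 1.72 and 2.91 on the log2 scale.

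Enzymes of intermediary metabolism were called in both directions. The citrate cycle had 6 of 23 tested members higher and 6 lower. The mitochondrial malate dehydrogenase *MDH2* rose (5.68) and the cytosolic *MDH1* fell (-2.49), as did the cytosolic isocitrate dehydrogenase *IDH1* (-2.78). Beta-oxidation of fatty acids had 7 of 31 higher and 9 lower, although *ACADM*, its medium-chain acyl-CoA dehydrogenase, had the largest rise of all named genes with a mean of at least 100. *ACADM* was at 1.58, 1.75 and 2.49 in SCNT4c and at 843, 1280.5 and 1315 in SCNT4c-KG. Its untreated libraries were near 0, unlike the treated ones (8.59 ± 0.55, adjusted p = 3.52e-08). *HADH* and *DECR1*, which act later and on unsaturated chains in that pathway, fell by 2.73 and 3.26. In glycolysis 4 of 22 were higher and 5 lower. *LDHA* rose (4.39) and *LDHC*, the lactate dehydrogenase of germ cells, fell (-2.66).

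Cholesterol synthesis leaned down, with 1 of 16 tested members higher and 8 lower (median -1.41). *MSMO1* fell by 2.05, and *NSDHL* was higher in all treated libraries (1.48, adjusted p = 0.0113), a call lost without SCNT4c library a. Of 32 redox genes 13 were higher and 6 lower. The superoxide dismutase *SOD1* and the peroxiredoxin *PRDX1* rose by 4.88 and 4.14, while catalase (*CAT*) and glutathione reductase (*GSR*) fell by 3.03 and 2.63.

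Transcript length moved with these results. Protein-coding genes with a symbol were divided into quartiles of exon length, with bounds at 2231, 3873 and 6514 bases. From the shortest to the longest quartile, 38.1%, 20.4%, 17.2% and 11.8% were higher and 12.9%, 20.02%, 21.7% and 21.4% were lower. The shortest quartile took 27.05% to 28.6% of all signal in SCNT4c and 41.8% to 46.0% in SCNT4c-KG. Ribosomal protein genes had a median exon length of 771 bases and complex I genes one of 880 bases. Within the shortest quartile, 72.2% of 327 genes in 13 lists of transcription, splicing, translation, proteasome and mitochondrial machinery were higher, and 32.8% of 2106 genes outside them. In the longest quartile these shares were 28.9% of 45 and 11.5% of 2386. By the span of the gene, introns included, 33.7% of the shortest quartile and 12.4% of the longest were higher. The part of length in the rise of the machinery was not tested.

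**Figure D3:**
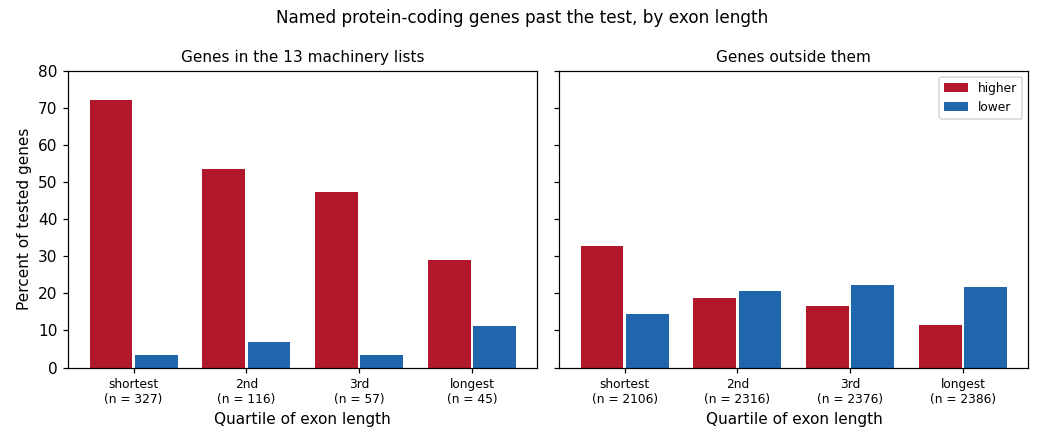
Percent of tested protein-coding genes that were higher (red) or lower (blue) in SCNT4c-KG, by quartile of exon length, for genes in 13 machinery lists (left) and outside them (right), with the number of genes under each pair of bars. The share that was higher falls with length on both sides and is larger inside the lists in each quartile, from 72.2% against 32.8% in the shortest to 28.9% against 11.5% in the longest.

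Cell cycle genes moved in both directions. Of 52 tested cyclins, cyclin-dependent kinases and inhibitors 19 were higher and 10 lower. *CKS2*, the small subunit of cyclin-dependent kinases needed for meiosis and early cleavage, was at 519, 584 and 468 in SCNT4c and at 129541, 117781 and 99597 in SCNT4c-KG. No untreated library came near the treated ones (7.78 ± 0.26, adjusted p = 1.01e-10). *CCNA2*, cyclin A2, and *CCNE1*, cyclin E1, rose by 6.29 and 1.99, and *CCNB1* had a log2 fold change of 0.70, under the fold limit. Among the inhibitors, *CDKN1C* (p57) was at 48.9, 33.2 and 4.98 and at 2733, 4061 and 2316. The treated libraries were all far higher, and the mean was only 26.8 in SCNT8c (7.09 ± 0.72, adjusted p = 3.75e-06). *CDKN2B* (p15) fell from 6291, 5748 and 6458 to 487, 411 and 541. Its libraries were close together within each group and the groups far apart (-3.69 ± 0.41, adjusted p = 8.98e-06).

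In mitosis and the spindle checkpoint 16 of 69 tested genes were higher and 19 lower. Subunits of the anaphase-promoting complex parted, with *CDC26* (5.45) and *CDC27* (4.32) higher and *ANAPC4* (-3.35) lower, and the kinetochore genes *NDC80* and *SPC25* fell (-2.24 and -2.43). DNA replication had 11 of 49 higher and 11 lower. Thymidine kinase *TK1*, of the salvage route to thymidine nucleotides, rose (3.46), and *TYMS* and *RRM1*, of the de novo route to deoxynucleotides, fell (-3.31 and -2.17). DNA repair had 9 of 40 higher and 13 lower, with *ERCC8*, of transcription-coupled repair, at 4.37 and the glycosylase *NEIL3* at -2.90. Of 32 p53 targets and apoptosis genes 9 were higher and 6 lower. *DIABLO*, a mitochondrial activator of caspases, and *PERP* rose by 6.60 and 5.51, and *PMAIP1* (NOXA) fell by 2.52.

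Of 21 tested pluripotency factors 9 were higher and 2 lower. *SOX2* was at 30.0, 10.5 and 1.66 in SCNT4c and at 399, 286 and 298 in SCNT4c-KG, and *NANOG*, in its entry on chromosome 1, at 10.3, 17.5 and 7.47 and at 201, 199 and 212. For both, all treated libraries were above all untreated ones (5.05 ± 0.81, adjusted p = 0.000248, and 4.09 ± 0.64, adjusted p = 0.000208). *DPPA5* rose by 3.75. *POU5F1* was at 927, 98.7 and 6.64 and at 157, 154 and 145. Its untreated libraries spread widely around the closely grouped treated ones, and it did not pass (0.78, adjusted p = 0.609). *OTX2*, a homeobox gene of epiblast and oocyte, fell from 32972, 38179 and 40599 to 7068, 6074 and 6379. Its groups were tight and apart (-2.51 ± 0.46, adjusted p = 0.000661).

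Of 19 tested trophectoderm and hypoblast factors 3 were higher and 3 lower. *GATA6*, a factor of the hypoblast, had no reads in the SCNT4c libraries and was at 276, 272 and 294 in SCNT4c-KG. Against a floor of 3 reads per library it was at least 112-fold higher in SCNT4c-KG (adjusted p = 7.32e-07), and its mean was 347 in SCNT4c-TDG and 0.906 in SCNT8c. *TFAP2C*, of the trophectoderm, rose by 4.34, and *PTGES*, the prostaglandin E synthase, by 4.61. *ID2* fell by 2.21. *CDX2* and *GATA3* were too low to be tested, *CDX2* at 41.0, 40.2 and 1.66 in SCNT4c with no reads in SCNT4c-KG.

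Of 38 tested adhesion and junction genes 8 were higher and 7 lower, shares of 21.1% and 18.4% that lie near those of all tested features (17.6% and 19.6%). The epithelial cadherin *CDH1*, on which compaction rests, was at 23.7, 19.2 and 21.6 in SCNT4c and at 629, 852 and 819 in SCNT4c-KG. Its partner *CTNNB1*, beta-catenin, was at 1943, 3018 and 3006 and at 431, 542 and 718. The groups did not overlap for either gene and moved in opposite directions (5.08 ± 0.45, adjusted p = 9.29e-07, and -2.24 ± 0.36, adjusted p = 0.000279). The claudin *CLDN7* rose by 5.73, and the junctional adhesion molecule *F11R* fell by 1.66. *ATP1B3*, a beta subunit of the sodium-potassium pump, rose from 53.6, 104 and 78.9 to 20618, 22699 and 16379.6. The treated libraries were all far above the untreated ones (8.00 ± 0.33, adjusted p = 1.10e-09).

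Among 73 tested signalling ligands and receptors 15 were higher and 16 lower, which is 20.5% and 21.9% and near the shares of all features. The ligand *BMP4* was at 57.6, 2.62 and 11.6 in SCNT4c and at 1227, 1123 and 1012 in SCNT4c-KG, and *ACVR1*, a type I receptor for such ligands, at 352, 211 and 466 and at 29.4, 6.35 and 4.27. All libraries of the groups were apart for both genes, *BMP4* upward (6.33 ± 0.88, adjusted p = 7.15e-05) and *ACVR1* downward (-4.95 ± 0.62, adjusted p = 2.81e-05). The receptor *FGFR3* and the ligand *IHH* rose by 5.97 and 5.00. *BMP4* was at a mean of 16.2 in SCNT4c-TDG and 6.29 in SCNT8c.

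**Figure D4:**
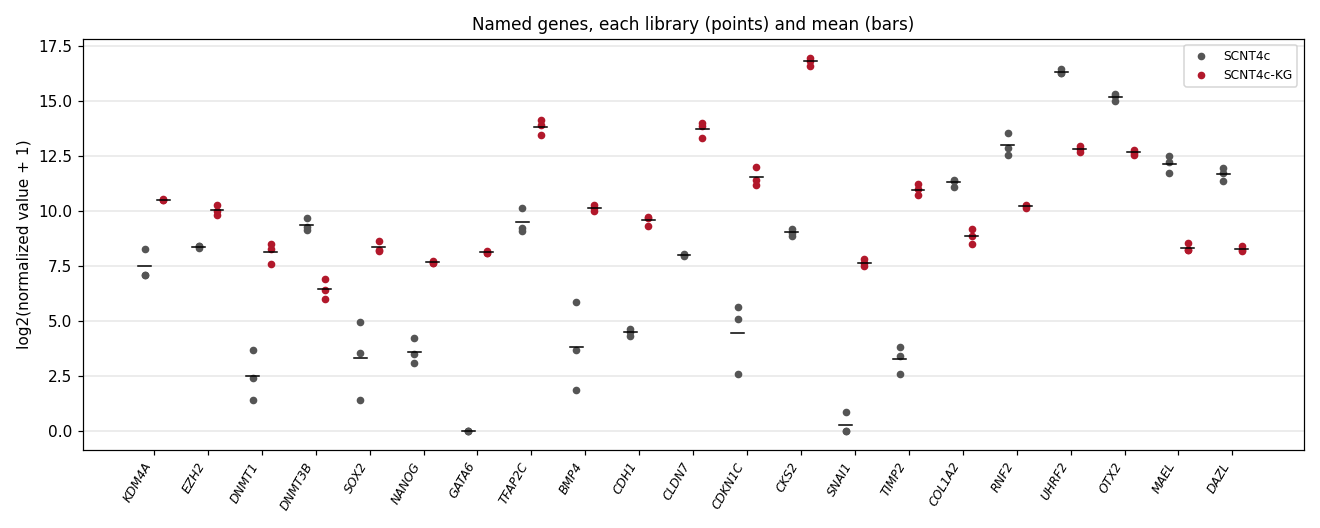
log2(normalized value + 1) of 21 named genes in each SCNT4c (grey) and SCNT4c-KG (red) library, with the mean of the 3 libraries as a bar. From *KDM4A* to *TIMP2* the red points lie above the grey ones except for *DNMT3B*, and from *COL1A2* to *DAZL* below them; *GATA6* sits at 0 in all 3 SCNT4c libraries.

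Maternal and oocyte genes moved in both directions. The 10 markers of oocyte and early embryo summed to 186588 to 208581 in SCNT4c and to 57600 to 96144 in SCNT4c-KG, and *GDF9* and *BMP15* among them are listed at 0 in every library. *KPNA7* and the zona gene *ZP4* made up most of this sum, *ZP4* with 63365 to 85407 in SCNT4c and 22429 to 46073 in SCNT4c-KG, and of the 7 markers tested 1 was higher and 2 were lower. The locus entries of *GDF9* and *BMP15* hold 2 features each, so their 0 does not show that the transcript was absent. Of 17 tested oocyte-secreted factors and zona proteins 3 were higher and 5 lower. *WEE2*, the oocyte kinase that holds meiotic arrest, was at 62392, 83206 and 106100.0 in SCNT4c and at 19969.7, 14450.4 and 21262 in SCNT4c-KG. The groups did not overlap (-2.16 ± 0.46, adjusted p = 0.00194). *KPNA7*, the importin of oocytes and embryos, fell by 1.96, while the zona protein *ZP3* rose (4.74). In the list of maternal mRNA decay and storage 24 of 69 were higher and 15 lower, yet its summed value was lower in every treated library, at 281794 to 317051 in SCNT4c and 161742 to 173886 in SCNT4c-KG. *KPNA7*, a member of this list too, made up the largest part of that difference, with 102177, 116463 and 128182 against 38048, 26094 and 26163. *TOB1*, which recruits the CCR4-NOT deadenylase, and the RNA exosome subunits *EXOSC5* and *EXOSC2* rose by 6.02, 4.58 and 4.37. *PAIP1*, which stimulates translation through the poly(A)-binding protein, fell by 2.52. *BTG4*, an adaptor for clearing maternal mRNA, was at 1480.5, 1668 and 1439 and at 7428, 5485 and 4866. Its groups did not overlap, yet it missed the threshold (1.93, adjusted p = 0.0626).

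Germline and piRNA genes had more falls than rises among the calls, with 4 of 31 tested higher and 9 lower (median -0.99). *MAEL*, a piRNA pathway protein, was at 3362, 5788 and 4776 in SCNT4c and at 376, 297 and 301 in SCNT4c-KG. *DAZL*, a germ cell RNA-binding protein, was at 2639.9, 4036 and 3354 and at 289, 294 and 343. Both were lower in every treated library (-3.81 ± 0.82, adjusted p = 0.00216, and -3.41 ± 0.74, adjusted p = 0.00225), and *PIWIL1*, a PIWI protein, fell by 2.44. *SYCP3*, of the meiotic chromosome axis, and *HENMT1*, which methylates piRNA ends, rose by 3.76 and 2.57. Against the count, the summed value of the list's 51 genes in the table was higher in every treated library, at 67513 to 71487 in SCNT4c and 107007 to 118681 in SCNT4c-KG. *HENMT1* alone differed by more than the sum, with 10736, 14799 and 12977 in SCNT4c and 82858, 66219 and 78622 in the treated libraries.

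Genes of the donor fibroblast were at low levels in all embryos, far below PFF. Of 41 tested fibroblast markers 10 were higher and 16 lower (median -0.87), and of 22 tested collagens 1 was higher and 8 were lower (median -1.41). *COL1A2* was at 2633, 2218 and 2755 in SCNT4c, at 469, 367 and 581 in SCNT4c-KG and at a mean of 1328300.0 in PFF. The treated libraries were all lower than the untreated ones (-2.44 ± 0.29, adjusted p = 1.73e-05). *IGFBP5*, a binding protein of insulin-like growth factors, fell by 4.53, and *COL1A1* did not pass (-0.88, adjusted p = 0.125). Against that direction, *TIMP2*, a metalloproteinase inhibitor, rose from 9.46, 13.1 and 4.98 to 2375, 1700.5 and 2029. Its untreated libraries were near 0 on this scale and all of its treated ones above 1000 (7.72 ± 0.52, adjusted p = 5.19e-08). *LGALS1*, galectin 1, and *VIM*, vimentin, rose by 4.48 and 1.59. The summed value of the 57 fibroblast markers in the table was 15344 to 17744 in SCNT4c and 23301 to 31185 in SCNT4c-KG, higher in every treated library, against the count of calls and against the sum of the 10 markers given first. *LGALS1*, which is not among those 10, was at 606, 482 and 543 in SCNT4c and at 13380.1, 12936 and 10267 in SCNT4c-KG, a difference larger than that of the whole sum. Summed over its 42 genes in the table, collagen had a mean of 5477 in SCNT4c, 1979 in SCNT4c-KG, 2111 in SCNT4c-TDG and 2378 in SCNT8c.

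Rises and falls were both found at each level of expression in the donor cells. Protein-coding genes listed at 0 in PFF were higher in 17.2% and lower in 19.97% of 711 cases, and those above 1000 in PFF were higher in 22.6% and lower in 23.5% of 3469. Between 10 and 100 in PFF, 20.6% of 1448 were higher and 14.4% lower. Of 39 tested mesenchymal transcription factors 6 were higher and 2 lower, among them *SNAI1*, a repressor of epithelial genes. *SNAI1* was at 0.789, 0 and 0 in SCNT4c, at 199, 223 and 179.5 in SCNT4c-KG and near 0 in PFF. No untreated library reached 1, and all treated ones were near 200 (7.37 ± 0.96, adjusted p = 4.07e-05). Of 20 tested HOX genes 1 was higher and 1 lower. Of 21 tested imprinted genes 5 were higher and 0 lower. *ZIM2* and the placental growth restrictor *PHLDA2* rose by 5.66 and 4.50, while *IGF2*, at 189, 26.2 and 0 and 124, 135 and 161, did not pass (adjusted p = 0.0709). Its untreated libraries lay on both sides of the treated ones.

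Stress and immediate-early genes had 14 of 40 tested members higher and 5 lower. *SGK1*, a kinase induced by serum and glucocorticoids, was at 3.94, 6.12 and 15.8 in SCNT4c and at 498, 482 and 970.4 in SCNT4c-KG. The groups were far apart (6.20 ± 0.73, adjusted p = 1.60e-05), and the mean was 4.16 in SCNT4c-TDG. *KLF10*, a factor induced by TGF-beta, and *BTG2*, an antiproliferative p53 target, rose by 7.87 and 5.37. *ASNS*, the asparagine synthetase that amino acid shortage induces, fell by 2.35. Zinc finger genes with ZNF numbers had 23 of 144 higher and 32 lower, or 16.0% and 22.2%, again near those shares. *ZNF664* went from 13707, 11193 and 11921 to 897, 1154 and 807. All of its treated libraries were far lower (-3.70 ± 0.25, adjusted p = 6.39e-08).

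Among genes of differentiated tissues, neurotransmitter receptors and synaptic genes had 3 of 50 tested members higher and 15 lower (median -1.51), and ion channels 10 of 79 higher and 11 lower (median -0.99). *GABRA4*, a subunit of the GABA-A receptor, was at 369.9, 263 and 309.7 in SCNT4c and at 16.3, 12.7 and 5.70 in SCNT4c-KG, and the potassium channel gene *KCNH7* at 2843, 2880.2 and 3125 and 221, 204 and 275. Neither gene had overlapping groups (-4.74 ± 0.56, adjusted p = 1.50e-05, and -3.66 ± 0.44, adjusted p = 1.96e-05). Solute carriers had 28 of 174 higher and 37 lower (16.1% and 21.3%, near the shares of all features), and cytokines, chemokines and interferon response genes 7 of 47 higher and 11 lower. *IL10* rose (4.31) and the chemokine receptor *CCR1* fell (-3.11). Of 10 leukocyte and erythroid markers tested, *CD14* and *CD68* were higher (5.47 and 2.05). The 8 markers fixed for these cells summed to 148 to 256 in SCNT4c and to 701 to 821 in SCNT4c-KG, and their part in other results was not tested.

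Olfactory receptors, a family looked at after the values were seen, leaned downward. They sense odorants in the nose and lie in clusters of near-identical genes. Of 999 in the table, 366 were above 0 in either group and 65 passed the filter. Of these 65, 33 were lower, 8 were higher and 24 were not called (median log2 fold change -3.01). Summed over the 999, their value came to 6015, 6199 and 7098 in SCNT4c and to 2483, 2665 and 2898 in SCNT4c-KG. No treated library came near an untreated one. The sum was 2178 to 3542 in SCNT4c-TDG, 1487 to 5713 in SCNT8c and 181 to 220 in PFF. Reads of near-identical copies may be divided between them uncertainly.

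Olfactory receptor genes also made up the longest run of neighbours. Between chr5:20364135-21051486 of Sscrofa11.1, 14 tested known genes in a row were lower, 12 of them annotated as receptors of the 6C family and 2 as pseudogenes. All 14 are listed at 0 in PFF. The highest of them, LOC100157938, annotated as olfactory receptor 6C68-like, was at 533, 746 and 628 in SCNT4c and at 67.0, 40.6 and 19.9 in SCNT4c-KG. The groups were well apart (-4.02 ± 0.69, adjusted p = 0.000416). The calls of 8 of the 14 were lost in at least 1 alternative setting. A second run, of 5 genes in chr2:14406214-14516243, consisted of receptors of the 4B, 4S and 4X families.

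**Figure D5:**
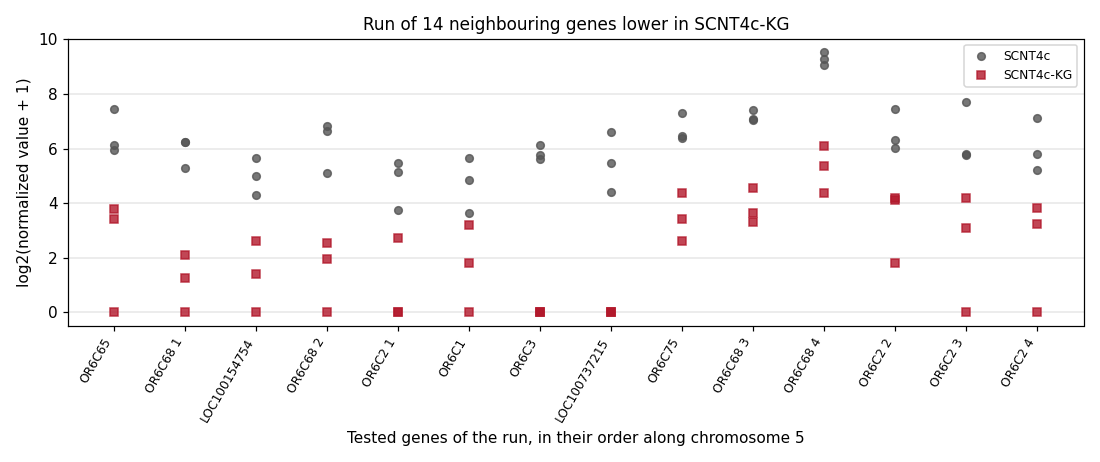
log2(normalized value + 1) of the 14 neighbouring genes on chromosome 5 in each SCNT4c (grey circles) and SCNT4c-KG (red squares) library, in their order along the chromosome; OR labels shorten the annotated olfactory receptor name, with a running number for repeated names. The 3 grey points lie above the 3 red ones for each gene, and OR6C3 and LOC100737215 are at 0 in all SCNT4c-KG libraries.

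Runs of at least 5 neighbouring tested known genes called in one direction numbered 7 for rises and 12 for falls. The longest runs of rises held 6 genes. In chr4:96007280-96178694 these were *S100A13*, *S100A14*, *S100A16*, *S100A4*, *S100A6* and *S100A7*, all of the S100 family of calcium-binding proteins. *S100A14* was at 168, 206 and 370.3 in SCNT4c and at 6521, 8607 and 5681 in SCNT4c-KG. Its treated libraries were all far above the untreated ones (4.86 ± 0.36, adjusted p = 1.37e-07), and the call of *S100A7* was lost in some alternatives. The other, in chr18:40538223-40784483, held *KBTBD2*, *AVL9*, *LSM5* and 3 genes without a symbol. Over all neighbouring pairs, the next gene was higher in 24.4% of cases after a higher gene and in 15.5% after a lower one, beside 19.9% of all these genes. It was lower in 23.4% after a lower gene and in 17.2% after a higher one, beside 19.6% of all.

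The largest falls of genes with a symbol included some that were not detected after treatment. *BBS9*, of the ciliary BBSome, *SLC12A5*, the neuronal potassium-chloride cotransporter, and *PKIA*, an inhibitor of protein kinase A, had no reads in the 3 SCNT4c-KG libraries. In SCNT4c they were at 111, 80.4 and 112, at 146, 133 and 34.9 and at 236, 66.4 and 39.9. The untreated libraries were close together for *BBS9* and spread several-fold for the other two. Against a floor of 3 reads per library, they were at least 23.4-fold, 24.2-fold and 26.4-fold lower (adjusted p = 0.00019, 3.25e-05 and 0.000623). *HRH1*, a histamine receptor, fell from 155, 158 and 117 to 0, 2.54 and 1.42, and *RAB30*, a GTPase of the Golgi, from 730.4, 542 and 529 to 34.3, 11.4 and 1.42. Their groups did not overlap. In all, 10 features at 0 in every SCNT4c library reached a mean of 100 in SCNT4c-KG, and 10 showed the converse.

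The 250 bases before the annotated start are shown for the 2 genes with a symbol that rose most and the 3 that fell most, read from Sscrofa11.1 and written along the gene's strand, so that a reader can compare their base composition. Capitals mark the GC box GGGCGG, the letters bound by SP factors, on either strand.
ACADM, chr6:137575545-137575794, minus strand: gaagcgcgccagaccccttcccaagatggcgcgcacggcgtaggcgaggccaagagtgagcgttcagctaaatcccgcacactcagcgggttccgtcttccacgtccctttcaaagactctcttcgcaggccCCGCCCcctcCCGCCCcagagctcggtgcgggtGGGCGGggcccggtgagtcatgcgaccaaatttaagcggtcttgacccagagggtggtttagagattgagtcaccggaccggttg
NDUFA11, chr2:73130779-73131028, plus strand: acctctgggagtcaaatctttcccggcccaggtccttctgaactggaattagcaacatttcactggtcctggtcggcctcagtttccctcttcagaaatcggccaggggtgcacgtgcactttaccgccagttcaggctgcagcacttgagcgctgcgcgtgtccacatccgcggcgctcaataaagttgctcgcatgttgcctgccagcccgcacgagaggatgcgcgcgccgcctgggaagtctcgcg
BBS9, chr18:40394245-40394494, minus strand: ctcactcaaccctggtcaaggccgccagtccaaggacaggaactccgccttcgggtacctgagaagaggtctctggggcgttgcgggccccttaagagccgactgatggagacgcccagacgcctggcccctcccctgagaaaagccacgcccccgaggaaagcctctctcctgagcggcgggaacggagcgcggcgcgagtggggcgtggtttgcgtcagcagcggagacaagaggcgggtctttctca
SLC12A5, chr17:48191822-48192071, plus strand: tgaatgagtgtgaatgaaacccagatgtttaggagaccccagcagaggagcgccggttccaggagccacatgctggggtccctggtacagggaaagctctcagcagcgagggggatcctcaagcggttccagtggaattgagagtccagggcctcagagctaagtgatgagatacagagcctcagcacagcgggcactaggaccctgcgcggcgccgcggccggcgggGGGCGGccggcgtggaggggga
PKIA, chr4:57879185-57879434, minus strand: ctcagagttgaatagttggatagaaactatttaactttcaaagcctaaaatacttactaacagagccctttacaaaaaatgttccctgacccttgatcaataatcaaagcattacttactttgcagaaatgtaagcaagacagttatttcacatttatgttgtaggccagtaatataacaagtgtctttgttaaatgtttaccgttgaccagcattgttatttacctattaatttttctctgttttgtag
The sequence before *ACADM* held 3 GC boxes, that before *SLC12A5* held 1, and the others held 0. The sequence before *PKIA* stood apart by its base composition, with 31.6% G and C and 1 CpG. Whether the annotated starts are where transcription begins was not tested.

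Across tested protein-coding genes with a symbol, a GC box was found in these 250 bases for 59.5% of the higher genes, 51.6% of the lower, 53.5% of those tested and not called, and 44.4% of all annotated protein-coding genes. The ETS motif CCGGAAGT, searched on both strands like the others, was found for 5.87% of the higher and 2.65% of the lower genes, against 3.80% of tested genes, 3.41% of those not called and 2.75% of all, and for 14.3% of 42 proteasome genes. The cyclic AMP response element TGACGTCA was found for 3.62% and 1.19% (2.29% of tested genes, 2.16% of those not called and 1.63% of all). The NRF1 motif was found for 8.36% and 6.32% (6.45%, 5.78% and 4.58%). CCAAT was near 34.9% and 34.1% (32.0%), and TATAAA 7.14% and 8.11% (10.4%). The GC box holds only G and C, and the windows were rich in them in both groups, with medians of 60.4% and 59.2%. These shares are descriptions of letters in a window and say nothing of binding.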

How the data were processed

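RNA-seq of pools of 30 SCNT embryos (3 libraries per group) was analysed from the table of normalized signal that the authors deposited. By the study's methods, SMARTer chemistry amplified the cDNA, reads were trimmed with Trimmomatic 0.39, aligned to Sscrofa11.1 with STAR 2.5.3a, assembled with StringTie 2.1.2 and counted with HTSeq. The deposited signal values are read counts scaled by 1 factor per library, and in every library 100% gave a whole number of reads when divided by that factor's unit (tolerance 0.01 reads). Amplification can favour some transcripts over others. The sources used here give neither a strand setting for the counting nor a sequencing batch. Of the named genes, 213 of 369 share a locus entry with another feature, so reads of overlapping genes may not be separated. The methods say that experiments were repeated, but not which pools came from separate rounds of nuclear transfer, so p-values measure the spread between these libraries.

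After removal of 241 repeated entries, features averaging 10 or more were tested in limma 3.58.1 in R 4.3.3 on log2(value + 1), with an intensity trend, in 1 fit of the 12 embryo libraries (SCNT4c, SCNT4c-KG, SCNT4c-TDG, SCNT8c). Calls needed a two-sided Benjamini-Hochberg adjusted p under 0.05 over all tested features and a fold change above 2. The 3 against 3 libraries allow no exact permutation p below 0.1. The script was tested on simulated data. A feature that was not called is not shown to be unchanged.

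The members and the 63 gene lists were chosen with earlier results of these data known. Genes named are the injected gene and listed key genes, up to 3 rises and 3 falls per list and the 15 largest rises and falls of all, given groups that do not overlap and a higher group averaging 100 or more, and the genes of the longest runs. Olfactory receptors, histones without a symbol and histidine tRNA genes were singled out after their values were seen, as were LOC100521680 and the further runs. Annotation was matched for 99.9% of known genes. Alternatives were quantile normalization, another pseudocount (0.1 or 10), another filter (a mean of 50, or any feature above 0), equal totals, edgeR 4.0.16 and DESeq2 1.42.0 on the recovered reads, a fit of the 2 groups, no fold limit, each library left out and, added after the data were seen, reads thinned to the shallowest library. The authors' own fold changes were not used.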

Additional observations from a re-analysis of the deposited data

How the results depend on the processing

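The number of features changed, 7054 as reported, was 5356 to 7871 over the alternatives, within 1.5 times of it in each. It was 5831 with edgeR and 7237 with DESeq2 on the recovered reads, 6950 with reads thinned to the shallowest library, and 5469 to 6252 with 1 library left out (2646 to 3037 higher, 2624 to 3413 lower). The balance of calls turned, from 3335 higher and 3719 lower as reported to 3114 and 2717 with edgeR, 3866 and 3371 with DESeq2, 3626 and 3609 with quantile normalization, and 3018 and 2624, 2842 and 2627, and 3037 and 2873 without SCNT4c library a, b and c. Quantile normalization raised the median log2 fold change of all features by 0.11, edgeR by 0.17 and DESeq2 by 0.22. Of 344 named genes called, 279 passed in each setting, 65 were lost in at least 1, mostly with edgeR (33 genes) or with a library left out (27 to 35 per library), and 0 changed sign. 2 genes that had not passed changed sign. The log2 fold change of *POU5F1* became -0.94 with edgeR and DESeq2 alike, and ranged from -0.99 (without SCNT4c library c) to 2.47 (without library a). That of *PRRX1*, -0.94 as reported, became 0.12 with edgeR, 0.13 with DESeq2, and ranged from -2.16 (without SCNT4c-KG replicate 1) to 0.67 (without replicate 3). Their cause was not tested. The median log2 fold change kept its sign in each setting for 44 of 62 lists. Among those whose sign varied were PRC2, H3K4 methylation, remodelling, citrate cycle, glycolysis, nuclear pore, mitosis, KLF factors, junctions, HOX, imprinted and ZNF genes. For cytosolic ribosomal proteins it stayed between 4.18 and 4.91. No paired analysis was possible because the sample numbers of SCNT4c conflict between label fields, so none ties an untreated to a treated library. At the depth of SCNT4c-KG, 3 reads correspond to a mean value of 4.33 over its 3 libraries, and near or below that an absence cannot be told from a low level.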
